A study of Mus musculus with 4 samples.

Results

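The regions described here were open chromatin sites inside introns that gave a strong ATAC-seq peak in every library of the study. ATAC-seq uses a transposase that inserts sequencing adapters into accessible DNA. Members were chosen by the −log10 q that the authors' peak caller gave to each broad peak. Peaks at 5 or above, called strong here, were merged across the 4 libraries at an overlap of 1 bp or more. A merged region was kept when all 4 libraries had such a peak in it and its strongest peak was annotated as lying in an intron. This left 1681 member regions of 21240 merged strong regions, and of 10390 that were strong in all 4 libraries. They made up 16.2% of these 10390, beside 6042 promoters and 1394 intergenic regions. Their strength is therefore a description and no result.

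The cells were LβT2 (LbT2 or LbT2b in the labels), an established mouse line that serves as a model of gonadotropes, the pituitary cells that secrete the gonadotropins. All libraries came from this line. The cells were kept overnight without serum and then given vehicle or 1 nM activin A, a ligand of the TGFβ family, for 6 h, with 2 libraries per treatment. The title names enhancers and the transcription of Fshb, which encodes the specific subunit of follicle-stimulating hormone, as the subject. The labels do not say whether libraries of a treatment came from separate cultures, so p-values measure the spread between these libraries, which may be technical.

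Introns are cut out of the transcript, but their DNA holds much of the regulatory sequence of a gene. The intron nearest the start of transcription is often the longest, and open sites in its opening stretch usually continue the promoter. Further in, open sites can be enhancers, start sites of shorter transcripts or sites bound by structural proteins such as CTCF, and accessibility alone does not tell these apart.

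Depth ranged from 172146474 to 224226184 high-quality autosomal reads per library. The enrichment at start sites was 2.72 and 2.48 under vehicle and 3.12 and 3.04 under activin. Strong peaks numbered 12377 and 12760 under vehicle and 19819 and 15807 under activin, so the activin libraries were above in start-site enrichment and in strong peaks, while the ranges of depth overlapped. A vehicle library was the weakest of the 4 for 1506 of the 1681 members, and activin library 1 was the strongest for 1338. The rule is therefore set mainly by the vehicle libraries. Among the lists of cell markers, 15 of 45 gonadotrope genes had a strong promoter region in all libraries, among them Lhb, Cga and Gnrhr, against 1 of 11 genes of other pituitary lineages (Drd2) and 1 of 20 genes of foreign cell types (Pax5). Fshb was not among the 15.

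Some members held the start of a listed transcript. RefSeq places a start of a transcript inside 499 members (29.7%). The following windows are the 200 bases that lead up to such a start, in the members with the highest lowest −log10 q that hold exactly 1 RefSeq start, of the host gene. They are printed to show the sequence at starts that lie in members the annotation files call an intron. The window of Cldnd1 begins outside its member, which starts at position 58727776, and the other 4 lie wholly inside theirs. Sequences are from RefSeq on GRCm38.p6, 5′ to 3′ on the strand of the gene, and capitals mark CCAAT or GGGCGG in either orientation. The first 3 lie over 2 kb from the start site that the annotation gives, and the last 2 within it.
Cldnd1, chr16:58727710-58727909, plus strand: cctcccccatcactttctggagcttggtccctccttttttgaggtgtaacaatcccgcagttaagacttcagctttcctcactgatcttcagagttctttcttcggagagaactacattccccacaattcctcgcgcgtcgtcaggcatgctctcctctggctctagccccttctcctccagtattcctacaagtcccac
Slc4a8, chr15:100761547-100761746, plus strand: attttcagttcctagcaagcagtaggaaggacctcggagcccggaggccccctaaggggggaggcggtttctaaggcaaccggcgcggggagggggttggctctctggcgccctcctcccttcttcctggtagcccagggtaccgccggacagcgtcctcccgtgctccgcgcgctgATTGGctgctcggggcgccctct
Rrbp1, chr2:144011264-144011463, minus strand: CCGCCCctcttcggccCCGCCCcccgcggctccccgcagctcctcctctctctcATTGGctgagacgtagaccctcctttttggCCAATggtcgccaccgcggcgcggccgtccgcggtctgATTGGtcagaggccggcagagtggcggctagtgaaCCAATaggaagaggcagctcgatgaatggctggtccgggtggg
Scai, chr2:39190731-39190930, minus strand: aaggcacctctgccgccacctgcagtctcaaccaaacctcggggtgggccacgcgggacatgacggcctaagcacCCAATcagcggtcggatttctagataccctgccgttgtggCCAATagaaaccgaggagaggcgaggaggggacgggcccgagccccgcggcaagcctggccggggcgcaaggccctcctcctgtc
Sertad3, chr7:27473640-27473839, plus strand: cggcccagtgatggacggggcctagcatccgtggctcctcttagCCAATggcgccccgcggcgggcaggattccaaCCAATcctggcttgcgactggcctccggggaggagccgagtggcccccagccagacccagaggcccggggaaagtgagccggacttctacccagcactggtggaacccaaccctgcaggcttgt

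The window of Rrbp1, which encodes a ribosome-binding protein of the endoplasmic reticulum, held 4 matches to CCAAT and 2 to GGGCGG. Cldnd1, a gene of the claudin family, had neither in its window and 51.5% G or C, against 66.5 to 67.5% in the other 4. None of the 5 windows held TATAAA or the cyclic AMP response element TGACGTCA.

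Over all the windows, those in members were richer in CpG than RefSeq windows at large. For each, the 250 bases before the start were searched on both strands. The 191 windows in members over 2 kb away had a median of 61.2% G or C and 15 CpG, and the 400 windows in members within 2 kb had 60.4% and 16. In the 6986 windows of constitutive strong promoters these were 63.6% and 20, and over all 32851 windows 52.4% and 6. GGGCGG was found in 64.9% of the windows over 2 kb away, in 61.8% of those within 2 kb, in 69.4% of those in constitutive promoters and in 32.7% of all. TATAAA was found in 3.14, 5.00, 3.78 and 12.4% of these sets, in the same order. CCAAT was found in 31.4, 33.5, 39.6 and 33.8%, highest in the constitutive promoters. TGACGTCA was found in 0.524, 2.25, 3.11 and 1.55% (1, 9, 217 and 508 windows). The palindromic SMAD element GTCTAGAC was found in 0.524, 0.25, 0.143 and 0.167% (1, 1, 10 and 55 windows). Shares that rest on 1 window cannot be compared. A match is a description of letters in a window and not a site.

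First introns held 999 members, which is 59.4% (95% Wilson interval 57.1 to 61.8%), and later introns held 682. Of the later ones, 225 lay in the second intron, 101 in the third, 65 in the fourth, 54 in the fifth and 237 further in. Gene models with a single intron accounted for 114 members, and 125 lay in the last of several introns. The number of an intron depends on the transcript. The annotation's second column of gene models kept 940 of the 999 in a first intron and moved 36 of the later ones into it, which gave 58.1%. The total length of first and later introns was not used here, so the shares are not set against the space available.

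Members fell into a group beside a start site and a group far from one. The annotation gives the distance from a peak's centre to the nearest start it lists, which belonged to the host gene for 96.3% of members within 2 kb and for 46.0% of those further away. No member was closer than 101 bp, since nearer peaks count as promoter. Within 0.5 kb lay 371 members, all downstream of the start, and 361 of these were in a first intron. The next 0.5 kb held 53 and the kilobase after that 63. Over 2 kb away were 1194 members, with 616 of all members between 10 and 50 kb and 250 beyond 50 kb. The median distance was 3.66 kb for first introns and 23.7 kb for later ones, and the longest was 362 kb. Within 2 kb, 453 of 487 members (93%) were in a first intron. Over 2 kb away it was 546 of 1194, or 45.7% (42.9 to 48.6%), and 648 were in later introns. Beyond 50 kb the share was 30.8% (25.4 to 36.8%).

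**Figure D1:**
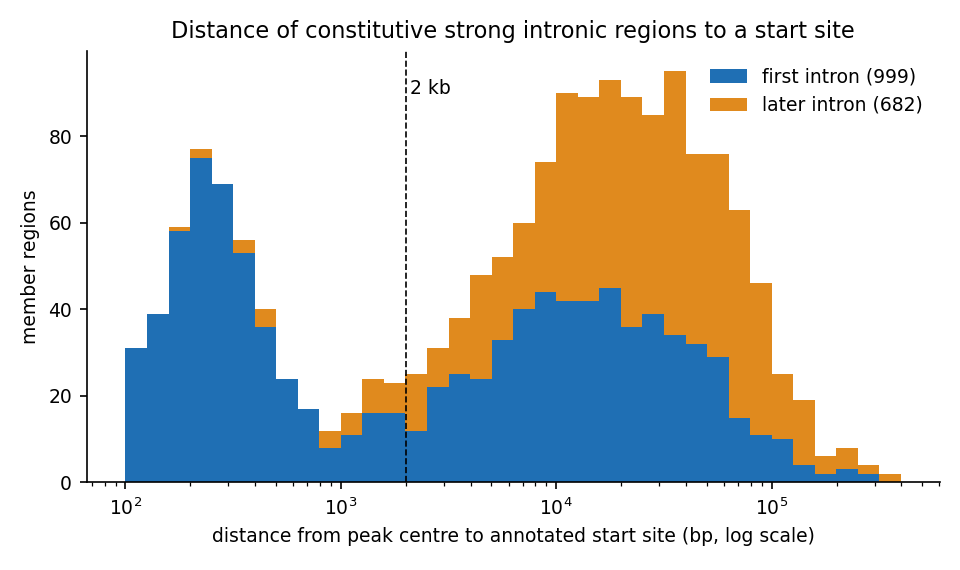
Number of member regions by the distance from the centre of their strongest peak to the annotated start site, in bp on a log scale, with first introns in blue and later introns in orange, stacked. The 371 members within 0.5 kb form a peak made almost wholly of first introns, and the 1194 members right of the 2 kb line are divided between 546 first and 648 later introns.

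The share in first introns was higher the more libraries had a strong peak. It was 39.1% for the 1998 intronic regions strong in a single library, 43.5% for the 1197 strong in 2, 47.4% for the 721 strong in 3 and 59.4% for the members. Over 2 kb from a start the same shares were 36.0, 39.4, 40.9 and 45.7%. Over all distances the 95% Wilson intervals of 3 and of 4 libraries did not overlap, while those of the other neighbours did. Over 2 kb away the intervals of all neighbours in this order overlapped. The classes rest on the −log10 q that the rule used, and the intervals cover counting error only. Their overlap is not a test, and these shares were not tested against each other. Within each library the share also went with the strength of the peak. Intronic peaks with a −log10 q under 2 were in a first intron in 32.0 to 33.0% of cases, those of 5 or more in 49.4 to 55.8% and those of 10 or more in 56.8 to 66.5%. Over 2 kb from a start the shares ran from 30.5 to 31.6% under 2 and from 44.6 to 51.1% at 10 or more.

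**Figure D2:**
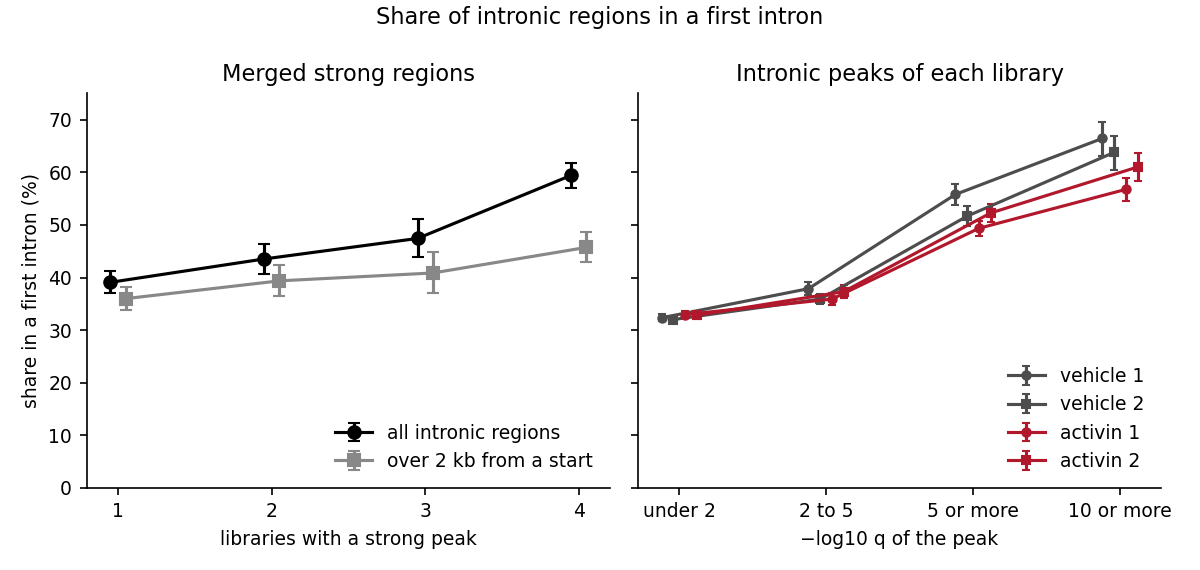
Share of intronic regions that lie in a first intron, in percent, with 95% Wilson intervals: left, merged strong regions by the number of libraries with a strong peak, for all and for those over 2 kb from a start; right, peaks of each library by −log10 q. The left series ends at 59.4% for all members and 45.7% for those over 2 kb from a start, and the right lines begin between 32.0 and 33.0%.

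The RefSeq starts divided along the same line. Within 2 kb of the annotated start 329 members (67.6%) held a RefSeq start, and over 2 kb away 170 (14.2%) did. Of the first-intron members over 2 kb away 154 (28.2%) held one, and of the later-intron members 16 (2.47%). For 142 of the 170 it was a start of the host gene itself. Constitutive strong promoters held a RefSeq start in 80.9% of cases and constitutive intergenic regions in 7.32%. These shares were not tested against each other.

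Member regions had a median length of 1053 bp, from 138 to 3874 bp. First-intron members had a median of 1129 bp and later-intron members 926 bp. Over 2 kb from a start these were 1060 and 914 bp. In 1334 members the strongest peak of each of the 4 libraries was annotated as intron, while in 221 the strongest peak of some library was annotated as promoter.

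The members lay in 1454 host genes. Protein-coding gene models held 1589 of them, long intergenic RNA genes 54, processed transcripts 20 and antisense genes 14. Most hosts, 1285, had a single member, 128 had 2, 27 had 3, 11 had 4 and 3 had 5. Hosts were long genes: their median RefSeq length was 62.8 kb (1390 hosts with a length) against 17.2 kb for 21887 protein-coding genes. It was 162 kb for the 169 hosts with 2 or more members, 118 kb for hosts of later-intron members over 2 kb away, 70.9 kb for hosts of first-intron members over 2 kb away, and 29.6 kb for hosts whose members were all within 2 kb. Neighbouring members of a host were a median of 35.1 kb apart. A separate promoter region strong in all libraries was annotated to 287 of the 1009 hosts with a member over 2 kb away (28.4%), and to 19 of the 445 hosts with members only within 2 kb (4.27%). A merged region has a single annotation, so a member that covers a start leaves no separate promoter region there. These shares therefore do not compare how open the promoters of the hosts were.

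Gramd1b, Camta1 and Galnt7 had 5 members each. In Gramd1b, which encodes a sterol transfer protein, the 5 members spanned chr9:40311726-40451108 and lay 5.37 to 57.5 kb from a start. High-quality read densities, in reads per kb of peak per 1000000 high-quality reads of the library, were between 2.55 and 5.47 in all 5 members and libraries. These densities are not centred, and on the log2 scale the median tested region was 0.27 higher with activin. A centred change, where given, is the limma log2 change after centring on each library's median region. The strongest, in intron 8 of 20 at chr9:40311726-40312380, had 4.96 and 4.33 under vehicle and 4.65 and 5.47 under activin. The libraries of the treatments overlapped there.

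Galnt7 encodes a transferase that adds sugars to mucin-type proteins. Its members included one 0.699 kb from the start, at chr8:57651631-57653262. Densities there were 2.22 and 2.05 under vehicle and 2.64 and 2.29 under activin (centred change −0.07, limma adjusted p = 0.889). A further 3 lay in the first intron, 37.5 to 50.6 kb from a start. The member in intron 2, at chr8:57571579-57571990, had only 0.308 and 0.420 under vehicle and 0.357 and 0.637 under activin, with −log10 q of 10.0 to 18.4. It was as strong by the peak caller as the others and several times lower in high-quality reads.

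Camta1, a calmodulin-binding transcription activator, showed the same split. At chr4:151302158-151303007 the densities were 3.78 and 3.34 under vehicle and 4.52 and 5.45 under activin (centred change 0.21, limma adjusted p = 0.609). At chr4:151308712-151309651, in the same intron, they were 0.203 and 0.541 under vehicle and 0.133 and 0.113 under activin. Both passed the same rule, with lowest −log10 q of 12.2 and 5.86.

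Arid1b, a subunit of the BAF chromatin remodeller, had 4 members, 3 of them in intron 4. The member at chr17:5189566-5190627 was among the densest of all. It had 7.04 and 5.47 under vehicle and 7.92 and 7.58 under activin (centred change 0.05, limma adjusted p = 0.910). That at chr17:5158598-5159660 had 0.0490 and 0.457 under vehicle and 0.0580 and 0.0166 under activin. Tns3 (tensin 3, a focal adhesion protein), Mapk4 (an atypical MAP kinase), App (the amyloid precursor protein) and Ddc (aromatic amino acid decarboxylase) had 4 members each. In these 4 genes the 16 members had densities of 2.03 to 6.74 in every library, and both first and later introns were used in each.

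The 10 members with the highest lowest −log10 q were in Flt1, Nkap, Snx29, Scai, Clec11a, Sertad3, Ptpn2, Gm2420, Triqk and Cldnd1. Those in Scai, a regulator of transcription by MRTF, and in Sertad3 lay 0.159 and 0.335 kb from a start. At Scai the densities were 9.30 and 7.04 under vehicle and 10.4 and 9.87 under activin. Sertad3 had 11.7 and 10.6 under vehicle and 14.2 and 13.9 under activin. In each the activin libraries lay above the vehicle libraries, as did the medians of all members on this scale, and after centring on each library's median region their changes were 0.05 and 0.06 (limma adjusted p = 0.907 and 0.885).

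The densest of the 10 was that of Clec11a, a secreted growth factor for bone and blood progenitors, in intron 3 of 3 at chr7:44304613-44305868. It had 13.4 and 10.1 under vehicle and 14.2 and 14.3 under activin (centred change 0.02, limma adjusted p = 0.979). The member in Cldnd1 whose window is printed above had 8.21 and 6.76 under vehicle and 9.29 and 9.93 under activin. Centred on each library's median region, its log2 values were 1.61 and 1.51 under vehicle and 1.57 and 1.74 under activin, which overlap (change 0.09, limma adjusted p = 0.803). Ptpn2, a phosphatase that acts on JAK and STAT proteins, had a first-intron member 34.2 kb from a start, without a RefSeq start. Its densities were 8.08 and 5.31 under vehicle and 8.79 and 8.48 under activin (centred change 0.12, limma adjusted p = 0.794). Triqk had 5.76 and 4.89 under vehicle and 7.55 and 5.76 under activin at chr4:12906686-12907498, 0.226 kb from a start. The centred change there was 0.04 (limma adjusted p = 0.940).

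In Snx29 and Gm2420 the value hung on where the library's peak ended. The member in Snx29, a sorting nexin gene, at chr16:11422636-11424134 had 0.633 and 0.633 under vehicle and 1.72 and 0.452 under activin, and the high value came from a peak of 1499 bp, against 622 to 652 bp in the other libraries. Gm2420 had 3.21 and 7.48 under vehicle and 3.51 and 3.49 under activin, with a peak of 249 bp in vehicle library 2. Neither entered the test of activin.

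The 2 members with the highest lowest −log10 q were unlike these. In Flt1, a receptor of vascular endothelial growth factor, the member was 190 bp long (chr5:147611438-147611627), in intron 2 of 2 of one model and intron 15 of 29 of another. Its −log10 q was 71.5 and 107 under vehicle and 104 and 74.0 under activin, and the authors' fold over background 9.21 to 10.5. It held only 32 and 36 high-quality reads under vehicle and 21 and 25 under activin. The member in Nkap, an X-linked gene of a nuclear protein of splicing and NF-κB signalling, was 203 bp long with folds of 14.8 to 21.1, and X-linked regions have no read number in the files. In all 28 members were under 300 bp.

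None of the 1681 members lay within 100 kb of Fshb. The 4 regions there that were strong in all libraries were 1 promoter and 3 intergenic regions.

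Of the gonadotrope list 5 of 45 genes were hosts, with 6 members, against 1426 of 35667 gene names in the annotation (4.00%). These names include non-coding genes and pseudogenes, and RefSeq has 21887 protein-coding genes. The 4.00% is therefore not a share over like genes, and the 2 shares were not tested against each other. Each of the 6 members was over 2 kb from a start. Nr5a1 encodes SF-1, the nuclear receptor needed for gonadotrope function. Its member, in intron 6 of 6 at chr2:38695109-38696733, had 4.35 and 3.72 under vehicle and 4.63 and 4.31 under activin. Tcf7l2, an effector of Wnt signalling, had a member at chr19:55827605-55829060. Its densities were 3.50 and 2.94 under vehicle and 4.29 and 4.01 under activin (centred change 0.10, limma adjusted p = 0.774). A further member of Tcf7l2, at chr19:55770453-55771246, had 0.115 and 0.205 under vehicle and 0.330 and 0.363 under activin. It did not enter the test of activin. Cpe, carboxypeptidase E of the secretory granule, and Bmpr1b, a receptor of bone morphogenetic proteins, had one each. No gene of the 11 of other pituitary lineages was a host. Of 20 genes foreign to the line Mbp was one, with 3.77 and 3.65 under vehicle and 3.97 and 4.35 under activin. The centred change at Mbp was −0.11 (limma adjusted p = 0.765).

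The activin pathway list had 4 hosts among 47 genes. Activin signals through receptor kinases that phosphorylate SMAD proteins. Tgfb1, a ligand of the family, had a first-intron member at chr7:25687669-25689660 with 5.72 and 4.86 under vehicle and 4.55 and 6.73 under activin. The treatments overlapped only through activin library 1, whose peak was 1992 bp, against 657 to 752 bp in the other libraries. This member did not enter the test of activin. Ldlrad4, which encodes an inhibitor of SMAD phosphorylation, had 3 members, and the strongest had 3.85 and 3.05 under vehicle and 4.73 and 3.53 under activin. The co-receptor gene Tgfbr3, whose product binds inhibin, had a member 0.437 kb from its start (chr5:107288538-107289758), with 2.42 and 1.98 under vehicle and 2.83 and 2.57 under activin. Smad9, the gene of a SMAD of the bone morphogenetic protein branch, had one in intron 4 with 2.16 and 2.06 under vehicle and 2.53 and 2.33 under activin. After centring on each library's median region, the changes at Tgfbr3 and Smad9 were 0.03 and −0.07 (limma adjusted p = 0.962 and 0.886). Of these 4 hosts only Tgfbr3 and Ldlrad4 had members within 2 kb of a start.

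Of the GnRH signalling list 14 of 67 genes were hosts (20.9%), with 19 members, 7 of them in first introns. GnRH acts through a Gq-coupled receptor, phospholipase C, calcium and MAP kinases. The list's genes have a median RefSeq length of 67.8 kb, against 17.1 kb for the gonadotrope list, and the share was not adjusted for length. The strongest member was in Sos1, an exchange factor of Ras, at chr17:80468392-80468983 in the first intron, with 2.22 and 1.83 under vehicle and 3.13 and 3.21 under activin. Both activin libraries were above both vehicle libraries. In Prkce, a protein kinase C gene, the strongest of 3 members had −log10 q of 24.8 to 66.9 but densities of 0.143 and 0.425 under vehicle and 0.263 and 0.0186 under activin. Adcy5, an adenylyl cyclase, had a first-intron member with 5.10 and 3.45 under vehicle and 4.46 and 4.05 under activin. The other hosts were Plcb1, Plcb4 and Prkcb, Map2k4 and Egfr, the calcium channel genes Itpr2, Cacna1c and Cacna1d, Creb1, Fosb and Rgs3. The list of chromatin and transcription regulators had 18 hosts of 75 genes (24%) and 27 members, with a median gene length of 109 kb.

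Read density describes how open a member was, and both classes of intron had passed the same rule of strength. The median over members was 2.91 and 2.55 under vehicle and 3.27 and 3.14 under activin. Members in first introns had 3.05, 2.66, 3.40 and 3.36 in vehicle libraries 1 and 2 and activin libraries 1 and 2, and those in later introns 2.73, 2.38, 3.01 and 2.81. First introns were thus higher in 4 of 4 libraries, by 0.19 ± 0.05 on the log2 scale (SD, n = 4), or 1.14-fold. The exact sign-flip permutation test gave p = 0.125, the smallest that 4 libraries allow (2-sided). The difference was 0.16 and 0.16 under vehicle and 0.18 and 0.26 under activin, and it did not separate the treatments beyond what 2 against 2 can show (exact permutation p = 0.333, the smallest possible). Over 2 kb from a start it was 0.17 ± 0.04 (SD, n = 4). Without the members of very low density described below it was 0.12, a setting chosen after the data were seen.

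Promoters strong in all libraries had medians of 3.56, 3.06, 4.10 and 3.92, above both kinds of member in each library, and intergenic regions 2.83, 2.48, 3.15 and 3.01, between the later and the first introns. Members over 2 kb away that hold a RefSeq start had 3.16, 2.79, 3.61 and 3.50, close to members within 2 kb, which had 3.15, 2.76, 3.59 and 3.51. The members together took 0.397 and 0.369% of high-quality reads under vehicle and 0.567 and 0.493% under activin, over peak lengths of 1317 and 1408 kb with vehicle and 1650 and 1497 kb with activin. First introns took 69.4 to 69.9% of these reads in each library.

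**Figure D3:**
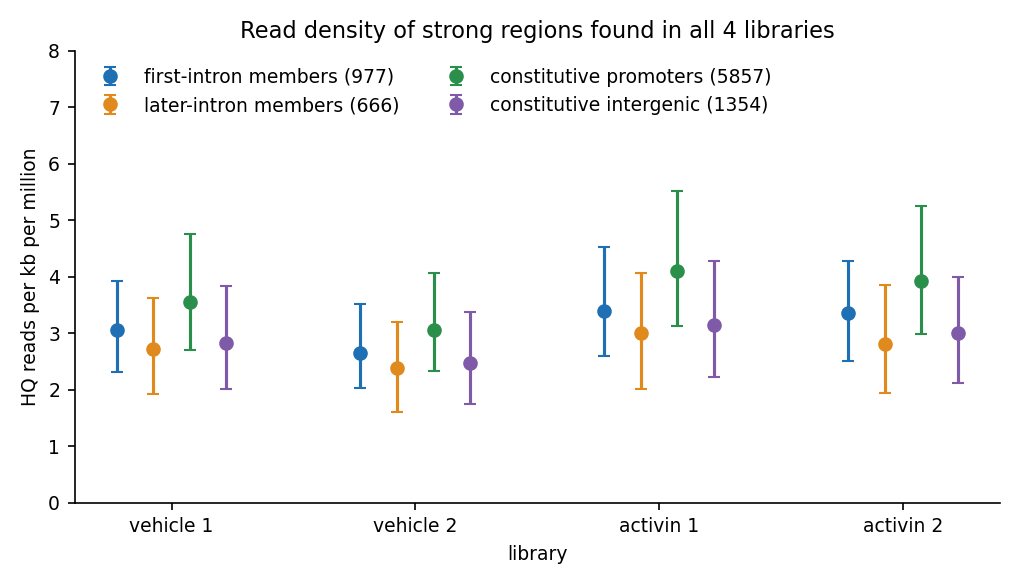
Median read density, in high-quality (HQ) reads per kb of peak per 1000000 reads, of 4 classes of autosomal strong regions in each library, with bars from the lower to the upper quartile over regions. In each library first-intron members (3.05, 2.66, 3.40 and 3.36) lie above later-intron members (2.73, 2.38, 3.01 and 2.81) and below promoters, with quartile ranges that overlap.

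The densities fell into a main group and a thin tail far below it. Averaged over libraries, 1456 of 1643 autosomal members had a density of 1.5 or more, 24 lay between 1 and 1.5, 40 between 0.4 and 1, and 123 under 0.4. The mean over all autosomes is 0.406, taken up to the last peak of each, so members in the tail held fewer high-quality reads per kb than the genome at large. In 93 members this was so in all 4 libraries. These made up 9.31% of later-intron members (62 of 666) and 3.17% of first-intron members (31 of 977). Among intergenic regions it was 9.90% and among promoters 0.376%. No member with a RefSeq start was among the 93, and 1 lay within 2 kb of a start.

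The rule required a strong peak in every library, so the peak caller's −log10 q could not be low in these members. The fold comes from the same peaks, so its height is a description and no separate result for the 93. Their median fold over background was 4.00 and 4.26 under vehicle and 3.93 and 4.18 under activin, beside 3.67, 3.41, 4.03 and 4.02 for all members. Their median number of high-quality reads was 6 and 17 under vehicle and 11 and 6 under activin, beside 341, 409, 649 and 447 for all. The strongest of them lay in intron 4 of 17 of Hgsnat, a lysosomal acetyltransferase gene, at chr8:25969545-25969964. There the −log10 q was 43.5 and 46.7 under vehicle and 66.9 and 41.4 under activin, while the densities were 0.0563 and 0.0557 under vehicle and 0.140 and 0.128 under activin. The quality report that holds the read numbers leaves out duplicates and alignments of low quality. Which alignments the peak caller used is not given in the sources used here, and the part of alignments left out of the read numbers was not tested.

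**Figure D4:**
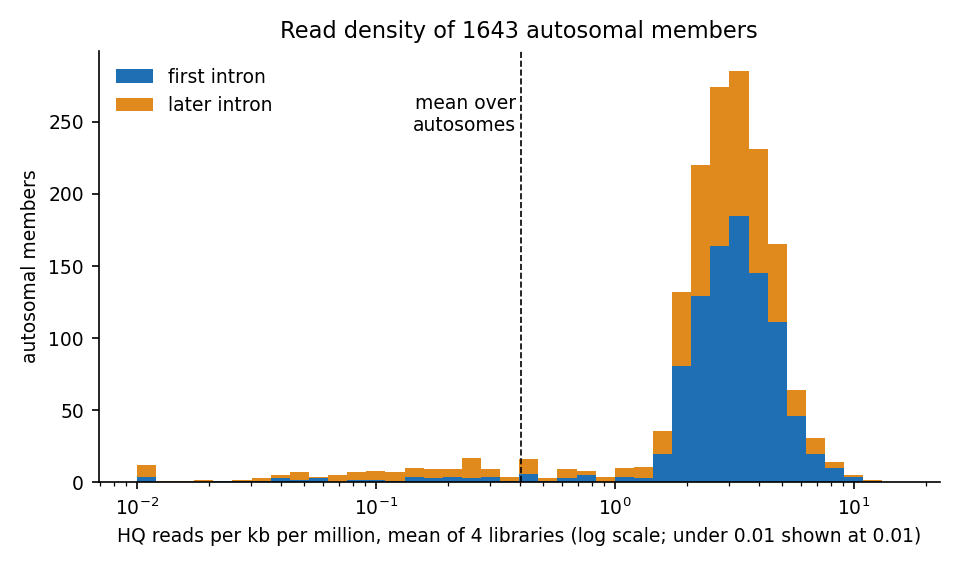
Number of autosomal members by read density, in high-quality (HQ) reads per kb per 1000000, averaged over 4 libraries, on a log scale, with first introns in blue and later introns in orange, stacked. Most of the 1643 members lie above 1.5, and the 123 under 0.4 form a tail to the left of the dashed line, which is the mean over the autosomes (0.406).

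The number of members on a chromosome went with the reads that chromosome gave. Members per Mb ranged from 0.313 on chromosome 3 (50 members) to 1.02 on chromosomes 9 and 17 (127 and 97), and chromosome 2 had the most, 178. High-quality reads per Mb were between 0.542 and 1.39 times the median autosome. Across the 19 autosomes Pearson's r was 0.881 and Spearman's rho 0.875, and for constitutive promoters per Mb r was 0.811. This is a description, since the points share the libraries, and what sets the reads per Mb was not tested.

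Whether activin changed the members was tested in a fit over all 13871 autosomal regions that had exactly 1 peak of each library, of any strength, with a common part of at least 50% of their union. Of the members 1202 (71.5%) entered, 754 in first and 448 in later introns. Not tested were 38 on the X chromosome, 88 with more than 1 peak of a library and 353 with a smaller common part. Densities were put on a log2 scale after adding 1 read and centred on each library's median region.

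No member and no other region passed an adjusted p of 0.05 (limma, Benjamini-Hochberg over all 13871 regions, 0% called), and the smallest adjusted p of a member was 0.184. At an unadjusted limma p under 0.05, 41 members (3.41%) were higher with activin and 94 (7.82%) lower, against 3.62% and 5.91% of all regions. Both activin libraries were above both vehicle libraries in 247 members (20.5%), against 20.9% of all regions, and below both in 250 (20.8%), against 20.5%. The shares that did not overlap were near those of all regions.

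Most members moved little. The change was under 0.5 on the log2 scale in either direction in 1107 of 1202 (92.1%), as in 93.6% of all regions. The median centred log2 density of members was 0.14 and 0.14 under vehicle and 0.14 and 0.15 under activin, a difference of 0.0026 (exact permutation p = 1, 2-sided, n = 2). Set against constitutive promoters, members differed by −0.02 (exact permutation p = 0.667) and against constitutive intergenic regions by −0.02 (exact permutation p = 1), where 2 against 2 libraries cannot go below 0.333. When the same reads were scaled to all high-quality reads of the library in place of the median region, the median region and each change rose by 0.27, so that medians close to 0 turn positive, and 52 members (4.33%) were called higher and 9 (0.749%) lower (limma, adjusted p under 0.05), against 3.99% and 0.375% of all regions.

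First and later introns differed in how widely single members were spread and in how many were lower. Among later-intron members 12 (2.68%) had an unadjusted limma p under 0.05 and were higher, and 57 (12.7%) were lower. In first introns these were 29 (3.85%) and 37 (4.91%). Over all regions the shares were 3.62% higher and 5.91% lower, and in constitutive intergenic regions 5.03% and 6.05%. Both activin libraries lay below both vehicle libraries in 29.5% of later-intron and 15.6% of first-intron members, and above both in 67 and 180 members (15% and 23.9%). Over all regions it was 20.5% below and 20.9% above, and in constitutive intergenic regions 21.9% and 19.4%. Constitutive promoters, at 13.3% below and 28.0% above, were nearer to the members within 2 kb of a start, at 12.2% and 28.0%. These shares of the classes were not tested against each other. The SD of the change over members was 0.61 in later and 0.29 in first introns. In the 81 tested members under the autosomal mean density in every library it was 1.06, and in the other tested members 0.34. Within 2 kb of a start none of 378 members changed by 1 or more on the log2 scale, and over 2 kb away 39 of 824 were lower by that much and 4 higher. Of these 43, 27 were among the 81 tested members under the autosomal mean density, and none of the 43 reached a density of 1 in any library.

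In the 39 members lower by 1 or more, the peak caller's fold moved far less than the reads. Their median number of high-quality reads was 15 and 35 under vehicle and 10 and 4 under activin. The authors' fold over background had medians of 4.00 and 4.23 under vehicle and 3.73 and 3.87 under activin. The mean −log10 q was higher with activin in 11 of the 39 (28.2%), and in 1106 of all 1202 tested members (92.0%). The rule required a strong peak in every library, so a region whose peak was lost with activin could not be a member. The fold and the −log10 q come from the peaks that chose the members, so their steadiness is a description and no separate result.

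The 4 members with the smallest p among those lower with activin included Disp1, the gene of a protein that releases Hedgehog ligands. Its member, in intron 4 of 8 at chr1:183103141-183103953, held 75 and 96 high-quality reads under vehicle and 6 and 2 under activin, and the treatments did not overlap. The limma change was −3.85 ± 0.46 (SE; adjusted p = 0.184, and 2.69e-06 to 0.362 over the alternatives). The authors' fold there was 3.28 and 2.90 under vehicle and 3.68 and 3.43 under activin. The rule kept only regions with a strong peak in every library.

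Ift52, a gene of intraflagellar transport, had 48 and 220 reads under vehicle and 3 and 7 under activin in intron 10 of 12 (chr2:163037388-163038569). The change was −3.93 ± 0.64 (SE, limma adjusted p = 0.260). The folds were 3.97 and 4.23 under vehicle and 4.27 and 4.41 under activin. Acap3, a regulator of the small GTPase Arf6, had 20 and 21 reads under vehicle and 0 and 0 under activin (chr4:155897478-155898187), which is at least 5.51-fold lower in density when 3 reads are taken as the floor in each activin library (limma adjusted p = 0.248). In these 3 members the change rests on few reads.

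Uqcc1, a gene for assembly of respiratory complex III, was different in that its member was dense. At chr2:155901408-155902121, in intron 2 of 6, densities were 8.75 and 6.77 under vehicle and 5.48 and 6.03 under activin. Both activin libraries were below both vehicle libraries. The −log10 q was 64.8 and 48.8 under vehicle and 42.5 and 43.4 under activin. It chose the members and comes from the same libraries, so it is no separate support. The change was −0.69 ± 0.11 (SE, limma adjusted p = 0.260, and 0.0755 to 0.381 over the alternatives).

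The 4 with the smallest p among those higher were dense as well. The member in 1600002D24Rik, a gene without an assigned function, at chr16:95834634-95835390 had 4.01 and 3.30 under vehicle and 7.03 and 6.11 under activin. Its change was 0.57 ± 0.10 (SE, limma adjusted p = 0.282, and 0.00233 to 0.466 over the alternatives). In Tcaf1, a partner of TRPM8 channels, the densities were 2.21 and 2.01 under vehicle and 3.83 and 3.38 under activin (change 0.50 ± 0.11, SE). Cpq, a carboxypeptidase gene, had a member 0.202 kb from the start with 4.36 and 3.47 under vehicle and 6.14 and 6.15 under activin (change 0.38 ± 0.10, SE). Snupn encodes snurportin, which carries small nuclear RNPs into the nucleus, and its member had 3.61 and 3.65 under vehicle and 5.63 and 6.41 under activin (change 0.45 ± 0.12, SE). For Tcaf1, Cpq and Snupn the limma adjusted p was 0.405. At Snupn the peaks were also shorter with activin (583 and 450 bp) than with vehicle (733 and 713 bp), and the change was −0.19 when reads were not divided by length.

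**Figure D5:**
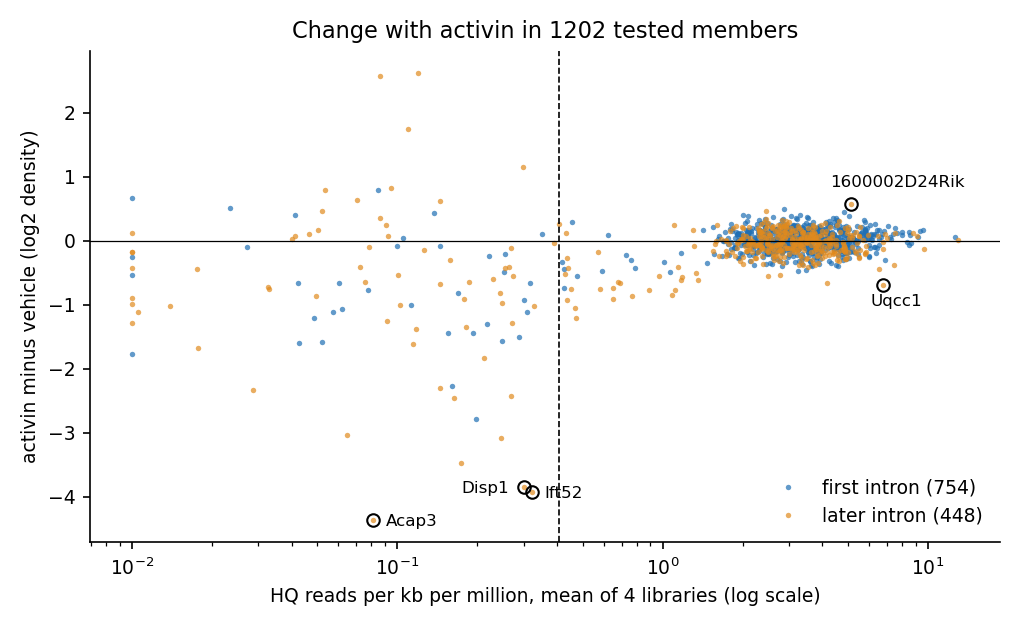
Change with activin of the 1202 tested members, as the limma log2 difference of centred density, against their mean read density in high-quality (HQ) reads per kb per 1000000 on a log scale (under 0.01 shown at 0.01), with first introns in blue and later introns in orange. Members right of 1.5 lie close to 0, and the changes of 1 or more, 39 lower and 4 higher, all lie at low density. Circles mark Disp1, Ift52, Acap3, Uqcc1 and 1600002D24Rik, and the dashed line is the autosomal mean (0.406).

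Among the tested members of the lists, 0 were called, as in all 13871 regions. At an unadjusted limma p under 0.05, 3.62% of all regions were higher with activin and 5.91% lower. The counts of the lists were not tested against these shares. The GnRH list had 14 tested members with a median change of 0.08 and a range of −1.84 (Prkce, limma adjusted p = 0.566) to 0.37, and 2 of them had an unadjusted limma p under 0.05, both higher. One was Sos1 (change 0.37 ± 0.12, SE, adjusted p = 0.429), and the other, in Prkcb (chr7:122331332-122332967), changed by 0.23 ± 0.10 (SE, limma adjusted p = 0.524). The regulator list had 17 tested members with a median change of −0.02, a range of −2.30 (the sparse member of Arid1b, limma adjusted p = 0.511) to 0.29, and 3 lower at that threshold. The activin pathway list had 3 with changes of −0.07 to 0.15, and the gonadotrope list 3 with changes of −0.81 to 0.20. The lowest was that of Bmpr1b, at 0.201 and 0.204 under vehicle and 0.133 and 0.139 under activin.

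At the edge of the rule, the members just inside by their lowest −log10 q were in Tmem38b (5.002), Dnajc12 (5.003) and Bmpr1b (5.005). Just outside were intronic regions in Mapk4 (4.999), Lrrc16a (4.997) and ENSMUSG00000097726 (4.996).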

How the data were processed

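Chromatin accessibility was measured in 4 libraries of LβT2 cells, 2 per treatment, grouped by sample title. The members and the gene lists were chosen with earlier results of these data known. Bowtie2, MACS2 and HOMER, with builds GRCm38 and mm10, are named in the submitters' processing notes without versions, and settings are not given in the sources used here. Per the deposited lists' layout, the authors' peaks were called per library, each with a fold (ratio) over the caller's background, the −log10 of its p-value and q-value, and a whole-number score that is 10 times the −log10 q. Peaks were annotated with annotatePeaks.pl, per the file headers. High-quality reads per autosomal peak came from reports of ataqv 1.3.1, per the file headers; X-linked peaks have none. The authors' folds and −log10 q were used to choose and describe peaks.

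Peaks were merged at 1 bp of overlap. Host genes are the Ensembl genes in the annotation, and 1426 of 1454 were paired with a symbol there. Density divides a peak's high-quality reads by its length in that library (kb) and by the library's total (per 1000000). Shared regions were tested with limma 3.58.1 in R 4.3.3 (lmFit, eBayes with trend, 1 read added, Benjamini-Hochberg at 0.05), since intervals differ between libraries and the numbers stand in a report, and the step was tested on simulated data. Fold changes on this scale are too small where reads are few. Single values were compared by exact permutation or sign-flip tests over libraries. Wilson intervals cover counting error only. Gene lengths and start sites were from RefSeq (GRCm38.p6). No genome was used, so the members' own sequences were not analysed here, and the RefSeq windows were added after the files were seen. Named were the 10 members with the highest lowest −log10 q, the 8 hosts with most members (5 of the 11 with 4 members, taken by their strongest member's lowest −log10 q), hosts in the gonadotrope, activin and GnRH lists (the 3 strongest members of each with values), the 4 smallest limma p in each direction, and 3 regions on each side of the threshold; Hgsnat and the second GnRH-list member at p under 0.05, in Prkcb, were singled out after their values were seen. Alternatives changed the −log10 q, the annotation, length, pseudocount, scaling, read minimum, overlap, replicate block and each library in turn. The values of 1 host gene of the gonadotrope list are not reported here.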

Additional observations from a re-analysis of the deposited data

How the results depend on the processing

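The number of members was 3170 at a −log10 q of at least 3 and 602 at 10, and 1659 to 2011 when a strong peak was required in only 3 libraries, each left out in turn. The share in a first intron was 52.8% at 3, 70.4% at 10, 51.1% where the annotation was an intron in all 4 libraries and 45.7% over 2 kb from a start; leaving out a library gave 57.2 to 59.0%. First introns stayed above later introns in density in all alternatives run, by 0.12 to 0.58 on the log2 scale, the highest without division by length and the lowest without members under the autosomal mean; leaving out a library gave 0.17 to 0.20. The cause of these shifts was not tested.

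The number of members called with activin was 0 as reported, 61 when scaled to all high-quality reads, 6 without division by length (among them Disp1, Ift52 and Acap3), 1 with a pseudocount of 10 reads (Disp1), and 0 with each library left out in turn. With the replicate block 2 were called (Disp1 and Ift52). Of all 13871 regions, 605 were called when scaled to all high-quality reads and 39 without division by length. With the pseudocount of 10 reads 1 of all regions was called, and with the replicate block 4. Same-numbered libraries did not deviate together (correlation of deviations −0.0252 over all shared regions and −0.0820 over members). With 2 libraries per treatment this cannot exclude that the numbers mark pairs, and the labels do not say. The median change of members was 0.28 scaled to all high-quality reads and −0.0027 with regions of at least 50 reads only, and 0.0063 to 0.0329 with a library left out. The difference from promoters was 0.0104 without division by length, and −0.04 to −0.00092 with a library left out. That from intergenic regions was −0.0313 to 0.0110 with a library left out, positive only without activin replicate 1. Of 71 alternatives for the 8 members named for their change, 56 left the direction and the lack of a call as they were, 14 called the member in the same direction, and 1 turned it: Snupn at −0.19 without division by length. With 2 libraries per treatment and medians of 6 to 17 reads, changes in members of low density are poorly measured.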
